A study of Mus musculus with 3 samples.

Results

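The 8 chemokine ligands Ccl2, Ccl3, Ccl4, Ccl5, Ccl6, Ccl9, Cxcl2 and Xcl1 were followed in the blood leukocytes of mice. They were taken by their symbols from the 32285 genes of the count tables, and all 8 were found in each table. Peripheral blood mononuclear cells (PBMCs) of female C57BL/6 mice had been measured by droplet-based 3′ single-cell RNA sequencing in 3 libraries, 1 per group. The young group was 8 weeks old and the aged group 16 months old. Their labels give no treatment, whereas the study's methods describe PBS injection for controls of GA. The aged-GA group was 16 months old and had received glycyrrhizic acid (GA), a saponin of liquorice, for 1 month by tail vein injection. Several mice stood behind each group per the study, but the cells of a library carry no label of their mouse, so each library was taken as 1 sample. With 1 library per group, a difference between groups and a difference between libraries cannot be told apart, no test was run, and all intervals and limits cover counting error only.

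Chemokines are small secreted proteins that guide leukocytes through G protein-coupled receptors. Ccl3 and Ccl5 are ligands of Ccr1, and Ccl4 attracts monocytes, NK cells and T cells. Ccl2 acts through Ccr2, by which classical monocytes leave the bone marrow. Ccl6 and Ccl9 are CC ligands of rodents that act through Ccr1. Cxcl2 draws neutrophils through Cxcr2, and Xcl1, made by NK cells and CD8 T cells, draws the dendritic cells that bear Xcr1.

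Cells were assigned to basophils, monocytes, neutrophils, NK cells and T cells by gates on marker genes that included no chemokine. A cell needed at least 3 markers of a class, and cells with many markers of another class were set aside as mixed. The gates of these 5 classes held 5514 of 8851 kept cells of the young library, 4141 of 10238 of the aged and 4308 of 12648 of the aged-GA library. Of 60 comparisons of a marker held out of the gates, 58 had their highest level in their own class. The exceptions were Cebpb in monocytes of both aged libraries. The libraries held between 48249945 and 75832322 UMIs (unique molecular identifiers, each counting a captured RNA molecule) in kept cells, and 50 to 62 barcodes were shared between a pair of libraries. Mixed cells made up 6.30%, 15.2% and 14.5% of kept cells in the young, aged and aged-GA libraries. Where 3 values follow each other below, they stand in this order. A level is given in CPM, the UMIs of a gene relative to all UMIs of the same cells, with its exact Poisson 95% interval. On this scale the 42802 CPM of Ccl4 in aged basophils are 4.28% of all their UMIs.

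The classes were very unequal in size. Basophils numbered 0, 110 and 27 cells, and the exact upper limit for the share of basophils in young mice was 0.0417% of kept cells. Monocytes numbered 51, 1029 and 275 cells, and neutrophils 13, 728 and 434 cells. NK cells numbered 313, 239 and 238, and T cells 5137, 2035 and 3334. A ratio between libraries was formed only in classes with at least 30 cells in both, so basophil levels of aged and aged-GA mice are given side by side, and neutrophils of young mice enter no ratio.

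On GRCm38, 6 of the genes lie on chromosome 11. Ccl5 (chr11:83525778-83530518), Ccl9 (chr11:83572919-83578636), Ccl6 (chr11:83587882-83593087) and Ccl3 (chr11:83647844-83649355) are on the minus strand, and Ccl4 (chr11:83662584-83664683) is on the plus strand. These 5 genes span 138906 bases, with 9245 bases between Ccl9 and Ccl6 and 13228 bases between Ccl3 and Ccl4. Ccl2 (chr11:82035571-82037453, plus strand) is 1488324 bases from Ccl5. Cxcl2 is at chr5:90903871-90905938 on the plus strand and Xcl1 at chr1:164931644-164935527 on the minus strand.

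Promoters of 5 of the 8 ligands were found in the RefSeq table (GRCm38.p6). The starts used here are those of RefSeq and need not match the gene bounds given above. The Cxcl2 window ends at 90903898, inside the gene span that begins at 90903871. The 150 bases before the start are shown for Cxcl2, the neutrophil ligand, Ccl3, the basophil ligand, and the neighbours Ccl6 and Ccl9, which parted in neutrophils. Capitals mark matches to the kappaB motif, the site of NF-kappaB, searched on both strands.
Cxcl2, chr5:90903749-90903898, plus strand: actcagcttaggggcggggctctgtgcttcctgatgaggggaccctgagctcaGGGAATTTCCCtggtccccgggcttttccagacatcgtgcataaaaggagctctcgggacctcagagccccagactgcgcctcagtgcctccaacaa
Ccl3, chr11:83649379-83649528, minus strand: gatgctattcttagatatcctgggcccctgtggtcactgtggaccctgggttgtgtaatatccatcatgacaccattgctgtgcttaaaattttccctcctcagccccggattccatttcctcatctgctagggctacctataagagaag
Ccl6, chr11:83593088-83593237, minus strand: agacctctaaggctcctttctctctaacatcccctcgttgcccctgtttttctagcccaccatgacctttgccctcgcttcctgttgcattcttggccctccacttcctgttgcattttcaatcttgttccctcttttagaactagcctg
Ccl9, chr11:83578637-83578786, minus strand: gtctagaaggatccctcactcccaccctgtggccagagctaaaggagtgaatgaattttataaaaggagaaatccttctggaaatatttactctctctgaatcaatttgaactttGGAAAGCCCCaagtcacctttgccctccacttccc
Cxcl2 held 2 overlapping matches, 97 to 87 bases before the start, and Ccl9 held 1, 35 to 26 bases before it. Ccl3, Ccl6 and Xcl1 held 0. Of 32851 promoters in the table, 4.6% held the motif in the same window. The C/EBP motif TTGCNNAA was in 5.46% of promoters and in 0 of these 5.

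Ccl3 and Ccl4 were at their highest level in basophils. Ccl4 was at 42802 CPM (42052 to 43561) in aged basophils and at 27513 CPM (26321 to 28745) in aged-GA basophils. Ccl3 was at 21397 CPM (20869 to 21936) and 14807 CPM (13936 to 15718). The intervals of the aged and aged-GA libraries, which cover counting error only, did not overlap for either gene, with 27 aged-GA basophils. Every basophil of both libraries held a Ccl4 UMI, and 98.2% of aged and 100% of aged-GA basophils held a Ccl3 UMI. For comparison, 5.83% of aged B cells held a Ccl4 UMI and 3.00% a Ccl3 UMI, at a median depth of 3079 UMIs against 2363.5 in basophils. After thinning each cell to 500 UMIs, Ccl4 was found in 99.1% of aged basophils and in 1.05% of aged B cells. The median aged basophil held 75.5 UMIs of Ccl4 and 26.5 of Ccl3, with up to 419 and 224 in 1 cell.

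**Figure D1:**
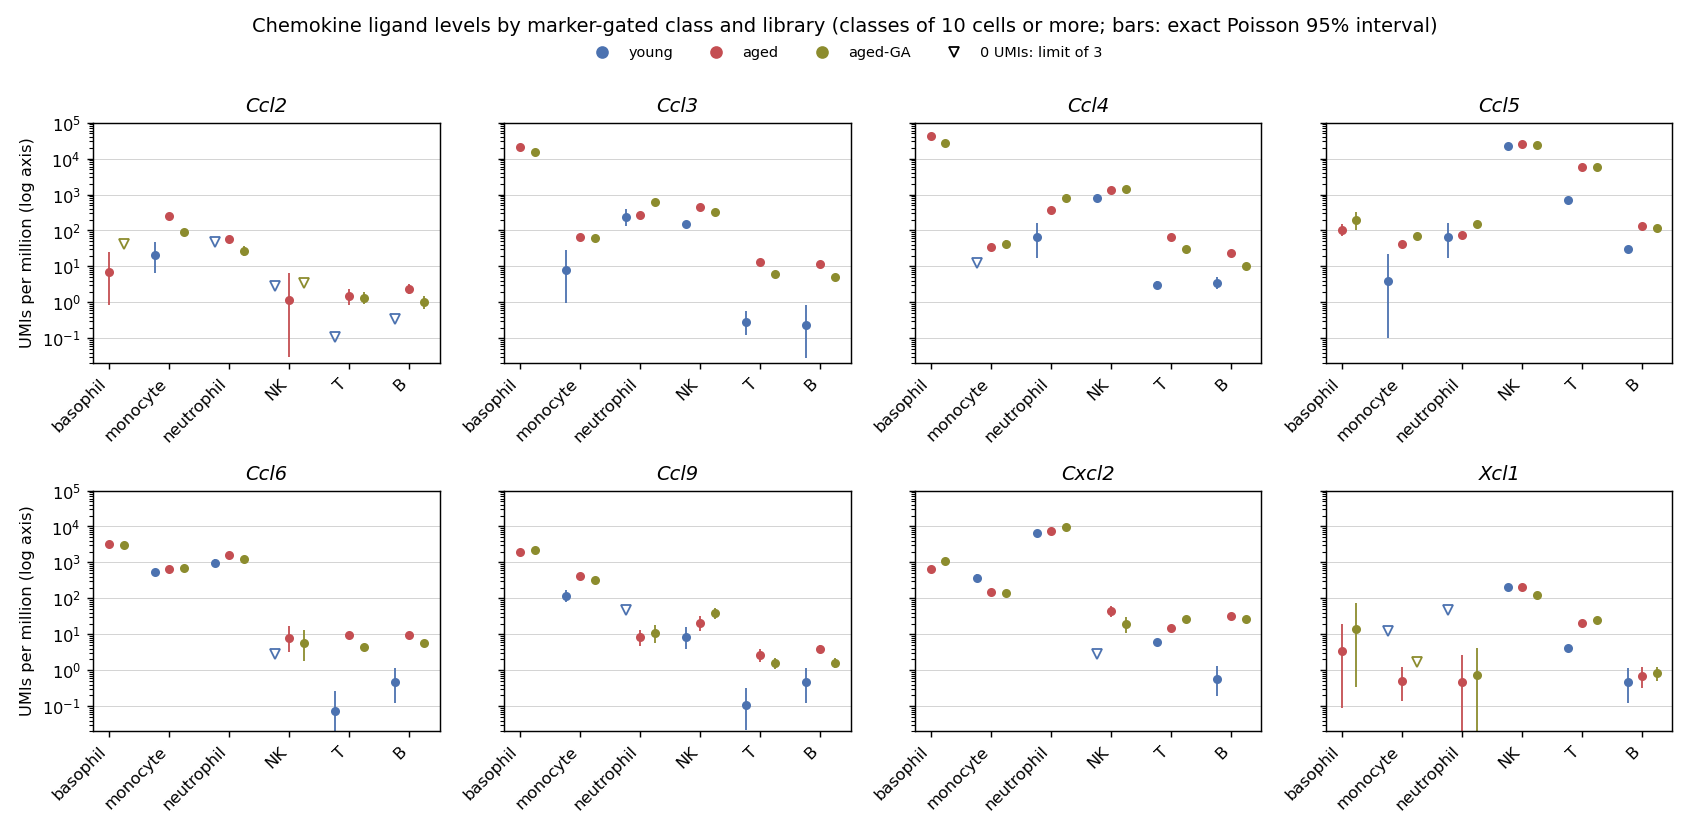
Level of each ligand (CPM, log axis) in 6 marker-gated classes, with 1 point per library (young, aged, aged-GA), exact Poisson 95% intervals as bars, and open triangles at the limit of 3 counts where 0 UMIs were found. Ccl3 and Ccl4 stood highest in basophils, Ccl5 and Xcl1 in NK cells, Cxcl2 in neutrophils, and the young library has no basophil point.

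Outside basophils, Ccl4 was next highest in NK cells and then in neutrophils. In NK cells, Ccl4 was at 818, 1373 and 1391 CPM, and Ccl3 at 149, 437 and 318 CPM. In neutrophils, Ccl4 was at 64.8 CPM (4 UMIs in 13 young cells), 363 and 785 CPM, and Ccl3 at 243, 274 and 610 CPM. In monocytes, Ccl3 was at 8.08 CPM (2 UMIs, young), 66.5 and 61.5 CPM. Ccl4 in monocytes had 0 UMIs in young mice, which allows up to 12.1 CPM, and 35.4 and 42.3 CPM in the aged and aged-GA libraries. By the gates, the order for Ccl4 in the aged library was basophils, NK cells, neutrophils, T cells and monocytes, and no neighbouring intervals overlapped. The order of the last 2 depended on the gate. With cells classed by clusters built without chemokine genes, aged monocytes were at 83.8 CPM (78.9 to 89.0) and T cells at 63.5 CPM (59.3 to 68.0). T cells as a whole and B cells held similar low levels of Ccl3, at 13.5 and 11.9 CPM (aged) and 6.14 and 5.06 CPM (aged-GA). CD8 memory T cells, defined below, stood higher, at 22.3 CPM (15.4 to 31.3, aged) and 14.3 CPM (9.96 to 19.9, aged-GA). Whether the low levels are background was not tested.

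Basophils, a small class, carried a large share of the Ccl3 and Ccl4 UMIs of the aged libraries. They were 1.07% of kept cells in aged mice and held 52.3% of all Ccl3 UMIs (95% exact binomial interval 51.4 to 53.2) and 53.9% of all Ccl4 UMIs (53.2 to 54.5). Another 26 mixed cells led by basophil markers held 14.9% of Ccl3 and 14.5% of Ccl4. In aged-GA mice, 0.213% of kept cells were basophils, with 23.9% of Ccl3 and 22.7% of Ccl4 UMIs. Mixed cells of any kind held 42.7% and 38.6% there. These shares depended on the gate. By clusters, 160 aged and 51 aged-GA basophils held 75.5% and 43.7% of Ccl3 UMIs, and 76.7% and 41.9% of Ccl4 UMIs. In young mice, where no basophil was found, NK cells held 73.8% of Ccl3 and 75.9% of Ccl4 UMIs.

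**Figure D2:**
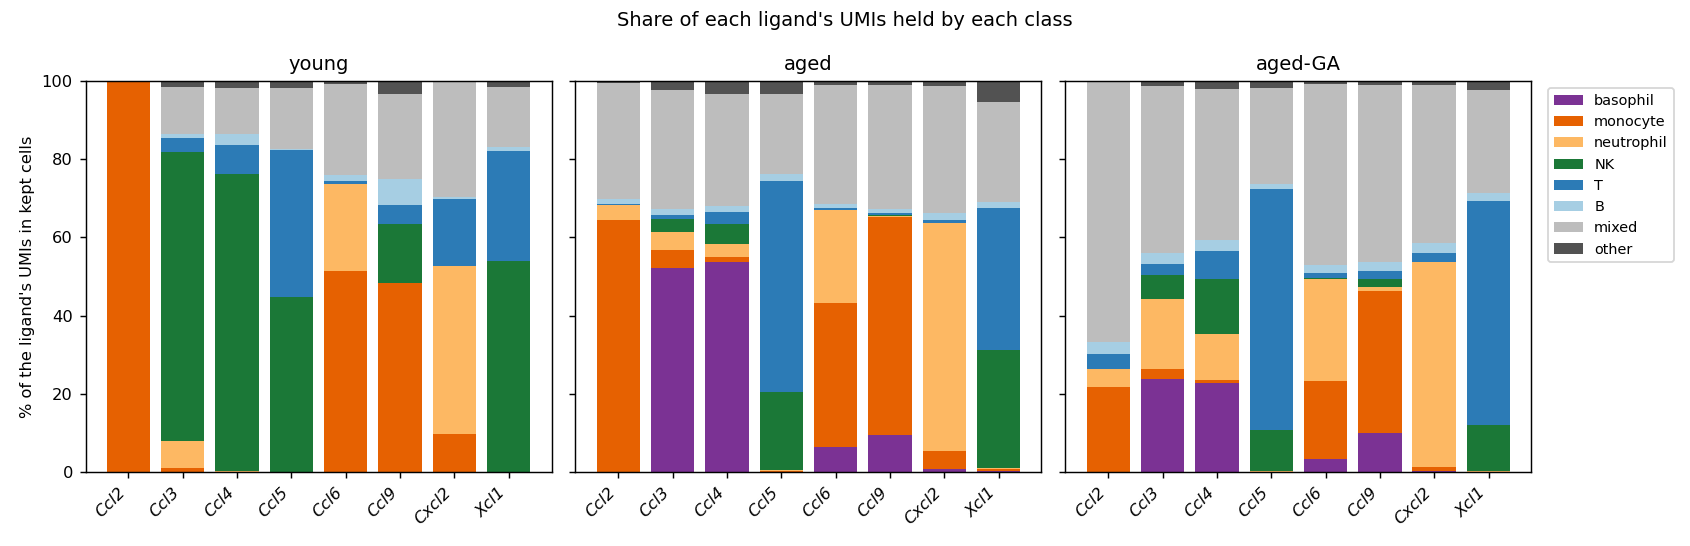
Share of the UMIs of each ligand (percent of all UMIs of the gene in kept cells) held by each class, per library. Aged basophils held 52.3% of Ccl3 and 53.9% of Ccl4, and young NK cells 73.8% and 75.9%.

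Ccl3 and Ccl4 did not stand in the same proportion in all classes. The ratio of Ccl4 to Ccl3 UMIs was 2.0 (1.94 to 2.06) in basophils of the aged and 1.86 (1.72 to 2.0) in those of the aged-GA library. It was 5.49, 3.14 and 4.38 in NK cells, 1.33 and 1.29 in neutrophils of aged and aged-GA mice, and 0.533 and 0.688 in monocytes. B cells of aged mice had a ratio of 2.01, near that of basophils. Among aged NK cells, 77.6% of cells with a Ccl3 UMI also had a Ccl4 UMI, against 62.6% of those without. In aged monocytes these shares were 25% and 11.7%.

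Ccl5, a ligand of memory T cells and NK cells, was at its highest level in NK cells. It was at 22644 CPM (22359 to 22932), 26142 CPM (25802 to 26485) and 23125 CPM (22810 to 23444), and every NK cell of the 3 libraries held a UMI. In T cells, Ccl5 was at 724, 5922 and 5661 CPM. The young T cells stood apart from both aged libraries, which were close to each other. In the other classes it was between 4.04 CPM (1 UMI, young monocytes) and 192 CPM (aged-GA basophils), and in B cells at 30.8, 131 and 121 CPM. After thinning to 500 UMIs, a Ccl5 UMI was held by 6.23%, 33.6% and 39.3% of T cells, against 0.940%, 3.71% and 4.3% of B cells. The unthinned shares of T cells came to 13.6%, 48.0% and 60.2% (median depth 5051, 4611 and 5837 UMIs), and those of B cells to 4.70%, 18.1% and 30.9% (3398.5, 3079 and 3769 UMIs). The share of all Ccl5 UMIs in NK cells was 44.8%, 20.1% and 10.7%, and that in T cells 37.4%, 53.9% and 61.4%.

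Within T cells, Ccl5 was followed in subsets gated on other markers. A CD8 T cell with at least 2 of the memory genes Cxcr3, Il2rb, Eomes, Gzmk, Gzmm and Id2, and at most 1 naive gene, was called CD8 memory. Such cells were 1.56%, 14.4% and 11.8% of T cells. They held Ccl5 at 11807, 22116 and 18724 CPM, and the log2 ratio aged over young within them was 0.91 (0.87 to 0.95). CD8 T cells with naive genes were at 97.9, 487 and 692 CPM, and CD4 T cells at 310, 1083 and 980 CPM. The log2 ratio aged over young was larger in these, at 2.31 (2.16 to 2.47) and 1.80 (1.71 to 1.89). It was 2.70 (2.65 to 2.74) in CD8 T cells in neither the memory nor the naive subset. In T cells of no CD4, CD8 or gamma-delta subset it was 2.78 (2.73 to 2.83). Gamma-delta T cells (60, 24 and 46 cells) were at 4591, 4564 and 7109 CPM. Young T cells recomputed with the subset makeup of aged mice would hold 2202 CPM, and young makeup with aged levels 3208 CPM, against observed levels of 724 CPM in young and 5922 CPM in aged mice.

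**Figure D3:**
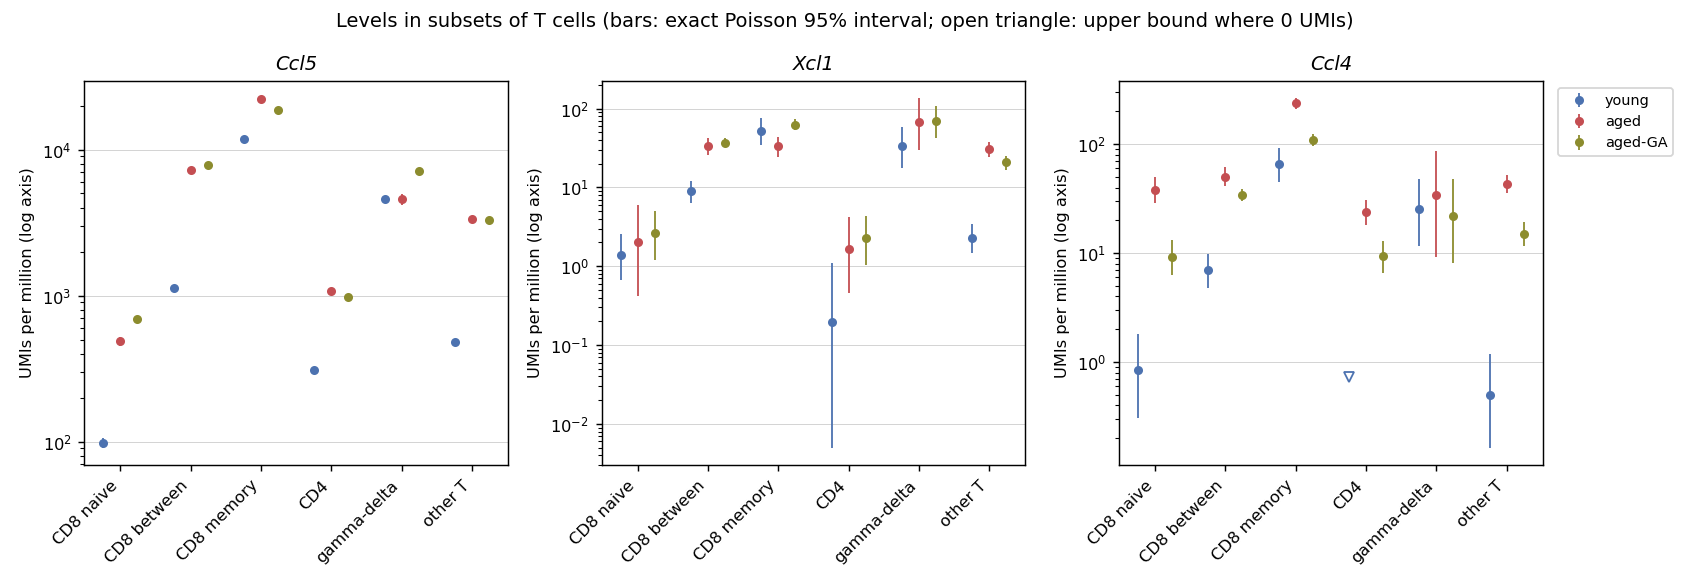
Levels of Ccl5, Xcl1 and Ccl4 (CPM, log axis) in 6 subsets of T cells, per library, with exact Poisson 95% intervals and an open triangle as upper bound where 0 UMIs were found. Ccl5 was highest in CD8 memory cells, at 11807, 22116 and 18724 CPM in the young, aged and aged-GA libraries.

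Xcl1, the ligand of Xcr1, was found in NK cells and T cells among the 5 classes, and in mixed cells, which held 15.3%, 25.6% and 26.4% of its UMIs. In NK cells it was at 205 CPM (179 to 235), 206 CPM (177 to 239) and 121 CPM (98.8 to 146). In T cells it was at 4.12, 20.9 and 24.6 CPM, and in monocytes, neutrophils and basophils at most 4 UMIs were found per class and library. Without thinning, a Xcl1 UMI was found in 16.6%, 18.8% and 18.9% of NK cells and in at most 0.244% of B cells. At 500 UMIs per cell, the shares of NK cells were 4.79%, 5.86% and 5.46%. The 31, 24 and 24 NK cells with most UMIs held 90.4%, 88.2% and 79.4% of them. For Ccl5 as many NK cells held 22.1%, 27.7% and 24.7%. Nearly all T cells with a Xcl1 UMI also held Ccl5 (95.7% of 69 cells, 93.9% of 114 and 98.5% of 323). Within T cells, Xcl1 was at 52.0, 33.1 and 62.1 CPM in CD8 memory cells and at 33.8, 68.0 and 69.5 CPM in gamma-delta cells. The gamma-delta values rest on 12, 8 and 19 UMIs in 6, 2 and 8 cells. Their young and aged intervals (17.5 to 59.0 and 29.4 to 134 CPM) overlapped.

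Ccl2, the monocyte attractant, was carried by monocytes. It was at 20.2 CPM (5 UMIs), 258 CPM (247 to 270) and 91.2 CPM (77.9 to 106) in them. Neutrophils were at 57.2 CPM (aged) and 27.15 CPM (aged-GA), and 18 of 728 aged neutrophils held all of their UMIs, 31.4% of them in 1 cell. NK cells and T cells held at most 1.47 CPM, and B cells 2.39 CPM in aged mice. Without thinning, a Ccl2 UMI was in 35.6% of aged and 18.5% of aged-GA monocytes, against 0.854% and 0.449% of B cells, and at 500 UMIs per cell in 8.84% and 2.18% of monocytes. In aged mice classical monocytes held Ccl2 at 355 CPM (504 cells) and nonclassical monocytes at 8.69 CPM (383 cells). In aged-GA mice these values were 169 CPM (87 cells) and 2.63 CPM (160 cells). Classical cells were 2 of 51 gated monocytes in young mice, 49.0% in aged mice and 31.6% after GA. Young monocytes were 84.3% nonclassical, so that monocyte levels of young mice compare different subsets with those of aged mice. In aged-GA mice, 66.5% of Ccl2 UMIs were in mixed cells and 21.7% in gated monocytes, against 29.8% and 64.5% in aged mice.

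Ccl6 and Ccl9, the neighbours on chromosome 11, were both highest in basophils and parted in neutrophils. Ccl6 was at 3171 CPM (921 UMIs) in aged and 3063 CPM (223 UMIs) in aged-GA basophils, and Ccl9 at 1942 and 2211 CPM. In neutrophils, Ccl6 was at 955, 1661 and 1275 CPM, whereas Ccl9 had 0 UMIs in young and was at 8.24 and 10.6 CPM in the others. In monocytes, Ccl6 was at 550, 660 and 707 CPM and Ccl9 at 117, 408 and 326 CPM. The ratio of Ccl6 to Ccl9 UMIs was 1.63 in aged basophils, 1.62 in aged monocytes and 201 (126 to 346) in aged neutrophils. Of aged monocytes with a Ccl9 UMI, 93.4% also held a Ccl6 UMI. Most aged monocytes held Ccl6 in any case, with a UMI in 98.6% of classical and 63.7% of nonclassical cells. A Ccl9 UMI was in 97.8% and 34.7% of these, at median depths of 9631 and 3787 UMIs. The part of depth in the joint share was not tested. In aged classical monocytes Ccl6 was at 775 and Ccl9 at 503 CPM, and in nonclassical monocytes at 353 and 141 CPM.

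Cxcl2 was carried by neutrophils, at 6719 CPM (415 UMIs in 13 young cells), 7450 CPM (7332 to 7568) and 9910.5 CPM (9742 to 10081). Without thinning, a Cxcl2 UMI was in 92.3%, 84.6% and 88.0% of neutrophils and in 0.179%, 4.88% and 7.60% of B cells. At 500 UMIs per cell, the shares of neutrophils were 69.2%, 72.4% and 76.3%. Aged basophils were at 675 CPM and aged-GA basophils at 1099 CPM, where 1 of 27 cells held 95% of the UMIs. Monocytes were at 380, 149 and 146 CPM. In young mice 1 of the 51 monocytes held 54.3% of their Cxcl2 UMIs. Neutrophils without granule genes, numbering 582 (aged) and 348 (aged-GA) cells, held Cxcl2 at 10286 and 13947 CPM. Neutrophils with at least 2 granule genes, 80 and 54 cells, held 579 and 382 CPM. The same cells differed for Ccl3 (384 against 7.15 CPM in aged mice), Ccl4 (544 against 7.15 CPM) and Ccl6 (2254 against 157 CPM). Of aged neutrophils with a Ccl3 UMI, 93.2% also held Cxcl2, and 26.6% of those with Cxcl2 held Ccl3, against 10.7% of those without.

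The aged and young libraries were compared in monocytes, NK cells and T cells. Per the study's methods, the young mice were bought and the aged mice reared in the laboratory, so origin differed along with age. Ratios are log2 ratios of CPM with exact conditional intervals. In monocytes, Ccl2 was higher in aged mice by 3.68 (2.45 to 5.30), Ccl9 by 1.80 (1.27 to 2.38) and Ccl3 by 3.04 (1.18 to 6.09), whereas Cxcl2 was lower, at -1.35 (-1.65 to -1.03). Ccl5 was higher by 3.40 (0.91 to 8.71), on 1 young UMI and with aged monocytes at 42.7 CPM, below the 131 CPM of aged B cells. Ccl4, with 0 young UMIs, was higher by at least 1.55, with aged monocytes at 35.4 CPM against 23.96 CPM in aged B cells. Ccl6 differed by 0.26 (0.02 to 0.52). Without the cell holding most UMIs of the ligand, left out after the data were seen, Cxcl2 was at -0.44 and Ccl9 at 2.42, and with cells classed by clusters Cxcl2 turned to 0.26. In NK cells, Ccl3 was higher in aged mice by 1.55 (1.28 to 1.83), Ccl4 by 0.75 (0.62 to 0.87) and Ccl5 by 0.21 (0.18 to 0.23), and Xcl1 did not differ beyond counting error (0.01, -0.29 to 0.30). In T cells, Ccl5 was higher by 3.03 (3.01 to 3.06) and Xcl1 by 2.35 (2.01 to 2.69). Xcl1 was at -0.65 (-1.36 to 0.09) within CD8 memory cells. Within CD8 T cells in neither the memory nor the naive subset, which held 36.0% (young) and 31.8% (aged) of T cell Xcl1 UMIs, Xcl1 was at 1.89 (1.31 to 2.49). Xcl1 was at 3.72 (3.04 to 4.46) within T cells in no CD4, CD8 or gamma-delta subset. With the aged subset makeup and the young levels, Xcl1 would be at 10.6 CPM, and with the young makeup and the aged levels at 18.8 CPM. The observed levels were 4.12 CPM (young) and 20.9 CPM (aged). The T cell ratios of Ccl3, Ccl4 and Cxcl2, 5.55, 4.44 and 1.35, stand on aged levels close to those of B cells for Ccl3 and Cxcl2 (Cxcl2 15.2 CPM in aged T cells, 32.3 in aged B cells). For Ccl4 the aged T cells stood at 67.3 CPM against 23.96 in aged B cells.

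**Figure D4:**
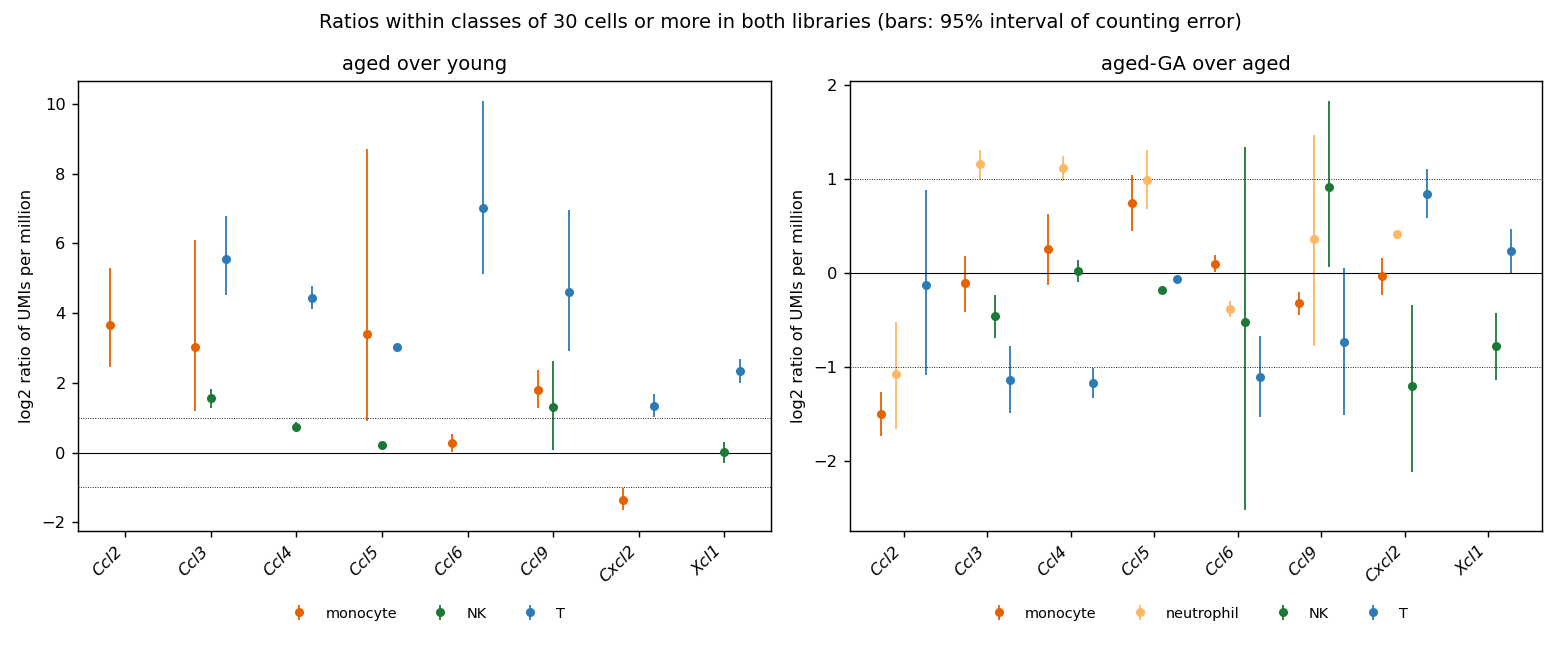
Log2 ratio of the level of each ligand, aged over young (left) and aged-GA over aged (right), in classes with at least 30 cells in both libraries, with 95% intervals of counting error. In aged over young, Ccl2 stood at 3.68 in monocytes and Ccl5 at 3.03 in T cells, and in aged-GA over aged, Ccl2 stood at -1.50 in monocytes and Ccl3 at 1.16 in neutrophils.

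These counts were set beside those over every gene that reached 100 UMIs in the 2 libraries together, on log2 ratios with a pseudocount of 1 CPM. In monocytes 18.9% of 6712 genes were past 2-fold, and of the 7 ligands that reached the minimum (Xcl1 did not), Ccl2, Ccl3, Ccl4, Ccl5 and Ccl9 were higher and Cxcl2 lower in aged mice. Young monocytes held 247461 UMIs in all against 8041657 in aged ones. Ccl2, Ccl3, Ccl4 and Ccl5, with 0 to 5 young UMIs, and Ccl9, with 29, therefore reached the minimum only through the aged library. All ligands counted as higher did so, and this count is a description. In NK cells 2.34% of 2816 genes were past 2-fold, and 1 of 4 ligands, Ccl3. With a minimum of 20 UMIs, 7.08% of genes and 3 of 6 ligands were, Ccl9 and Cxcl2 being added. Cxcl2, with 0 young and 38 aged UMIs, reached it only through the aged library, at 44.1 CPM against 32.3 CPM in aged B cells. Ccl9 stood on 9 young and 18 aged UMIs, so this count too is a description. In T cells 8.63% of 9307 genes were past 2-fold, and the 5 ligands that reached the minimum (Ccl3, Ccl4, Ccl5, Cxcl2 and Xcl1) were higher in aged mice, Ccl3 and Ccl4 having reached it only through the aged library. With a pseudocount of 10 CPM, 4 of the 5 were past 2-fold in T cells, beside 2.41% of genes. With a minimum of 20 UMIs 7 of 7 were, beside 10.3% of genes, Ccl6 and Ccl9 being added. Ccl6 and Ccl9, with 2 and 3 young UMIs, reached this minimum only through the aged library. Their aged T cell levels, 9.30 and 2.64 CPM, were not above the 9.76 and 3.96 CPM of aged B cells, so this count is a description. The 51 young monocytes had another subset makeup than the aged ones. Within nonclassical monocytes, of which 43 were young, the ratios were 2.30 (0.40 to 5.37) for Ccl3, 1.45 (0.54 to 2.52) for Ccl9 and -0.36 (-0.90 to 0.22) for Cxcl2, and Ccl6 turned to -0.47 (-0.78 to -0.14). With the aged makeup and the young subset levels, Ccl9 would be at 456 CPM and Ccl2 at 105 CPM, and with the young makeup and the aged levels at 206 and 65.0 CPM. The first of these values rest on 2 young classical cells.

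Aged mice with and without GA were compared in monocytes, neutrophils, NK cells and T cells. In monocytes, Ccl2 was lower in aged-GA mice, at -1.50 (-1.74 to -1.27), and within classical monocytes at -1.07 (-1.34 to -0.82). With cells classed by clusters, the monocyte value was -0.60, which is not past 2-fold. Ccl9 was lower by a smaller amount, at -0.32 (-0.45 to -0.20), but was at 0.09 (-0.06 to 0.24) within classical and 0.06 (-0.28 to 0.39) within nonclassical cells. Over all monocytes the intervals of Ccl3 and Cxcl2 included 0. Cxcl2 went in opposite directions by subset, at -0.67 (-1.02 to -0.35) within classical and 0.47 (0.15 to 0.78) within nonclassical cells. In neutrophils, Ccl3 and Ccl4 were higher in aged-GA mice, by 1.16 (1.00 to 1.31) and 1.11 (0.98 to 1.25). By clusters these values were 0.88 and 0.58, neither past 2-fold. Ccl5 was higher by 0.99 (0.68 to 1.31), at 74.7 and 149 CPM against 131 and 121 CPM in B cells, and by clusters at 0.39. Cxcl2 was higher by 0.41 (0.38 to 0.45), and Ccl6 was lower, at -0.38 (-0.47 to -0.30). In NK cells, Xcl1 was lower, at -0.78 (-1.14 to -0.42), Ccl3 at -0.46 (-0.69 to -0.23) and Ccl5 at -0.18 (-0.20 to -0.15), and Ccl4 did not differ beyond counting error (0.02, -0.10 to 0.14). In T cells, Ccl5 was at -0.07 and Xcl1 at 0.23 (0.00 to 0.47), but their subsets differed in direction. Ccl5 was at -0.24 in CD8 memory, 0.51 (0.39 to 0.63) in CD8 naive and -0.14 in CD4 cells. It was at 0.11 in CD8 cells of neither subset and -0.02 in T cells of no subset. Xcl1 was at 0.91 (0.43 to 1.40) in CD8 memory cells and -0.56 (-1.01 to -0.12) in T cells of no subset. Its intervals in the CD4 and other CD8 subsets included 0. Ccl4 was lower in T cells, at -1.17 (-1.33 to -1.01), with levels of 67.3 and 29.9 CPM. B cells were lower in Ccl4 as well, at 23.96 and 10.3 CPM. The T cell level was thus 2.81 and 2.91 times that of B cells in the 2 libraries. The part of background in this T cell difference was not tested. Cxcl2 was higher in T cells by 0.84 (0.58 to 1.11), at 15.2 and 27.1 CPM against 32.3 and 27.2 CPM in B cells.

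Of all genes tested in monocytes, 1.62% of 7155 were past 2-fold, and of 7 ligands 1 was, Ccl2. In neutrophils 0.827% of 3142 genes were past 2-fold, and 3 of 6 ligands, Ccl3 and Ccl4 higher and Ccl2 lower in aged-GA mice. Ccl2, with 36 aged-GA UMIs, reached the minimum only through the aged library. With a pseudocount of 10 CPM, Ccl2 no longer was, and by clusters its log2 ratio was -0.17. In NK cells 0.479% of 2715 genes were past 2-fold, and 0 of 4 ligands, and with a minimum of 20 UMIs 3.44% of genes and 1 of 6 ligands, Cxcl2. Cxcl2, with 38 aged and 17 aged-GA UMIs there, reached that minimum only through the aged library. In T cells 0.333% of 9318 genes were past 2-fold, and 2 of 6 ligands, Ccl3 and Ccl4, both lower. Both were lower in B cells too, and the T cell levels of Ccl3 were near those of B cells. With a pseudocount of 10 CPM, 0 of 6 ligands were past 2-fold in T cells. The median aged neutrophil held 2233 UMIs and the median aged-GA neutrophil 2423.5, and the part of depth or of mixed cells in these differences was not tested. In basophils, with a minimum of 20 cells chosen after the data were seen, the ratio of aged-GA over aged was -0.53 for Ccl3, -0.64 for Ccl4, -0.05 for Ccl6 and 0.19 for Ccl9. By clusters the values were -0.98 for Ccl3 and -1.06 for Ccl4. By the gates, 3.01% of 498 genes were past 2-fold in basophils, and 0 of 5 ligands.

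Over all kept cells, the level of a ligand joins the makeup of a library with the level in its classes. Ccl4 was at 23.7, 429 and 116 CPM, and Ccl3 at 4.44, 221 and 59.6 CPM. If aged-GA cells had the class levels of aged mice, Ccl4 would be at 188 CPM, and if aged cells had the class levels of aged-GA mice, at 294 CPM. For Cxcl2, at 19.98, 490 and 332 CPM, the corresponding values were 273 and 662 CPM. Ccl2 was at 0.104, 59.9 and 10.1 CPM, with 18 and 30.6 CPM after the exchange. Ccl5, at 1110, 2089 and 2533 CPM, went to 2558 and 2099 CPM, close to the library that gave the makeup. For Ccl2, Ccl3, Ccl4, Ccl6 and Ccl9, both exchanged levels lay between the observed levels of aged and aged-GA mice. For Ccl5, Cxcl2 and Xcl1 this was not so.

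**Figure D5:**
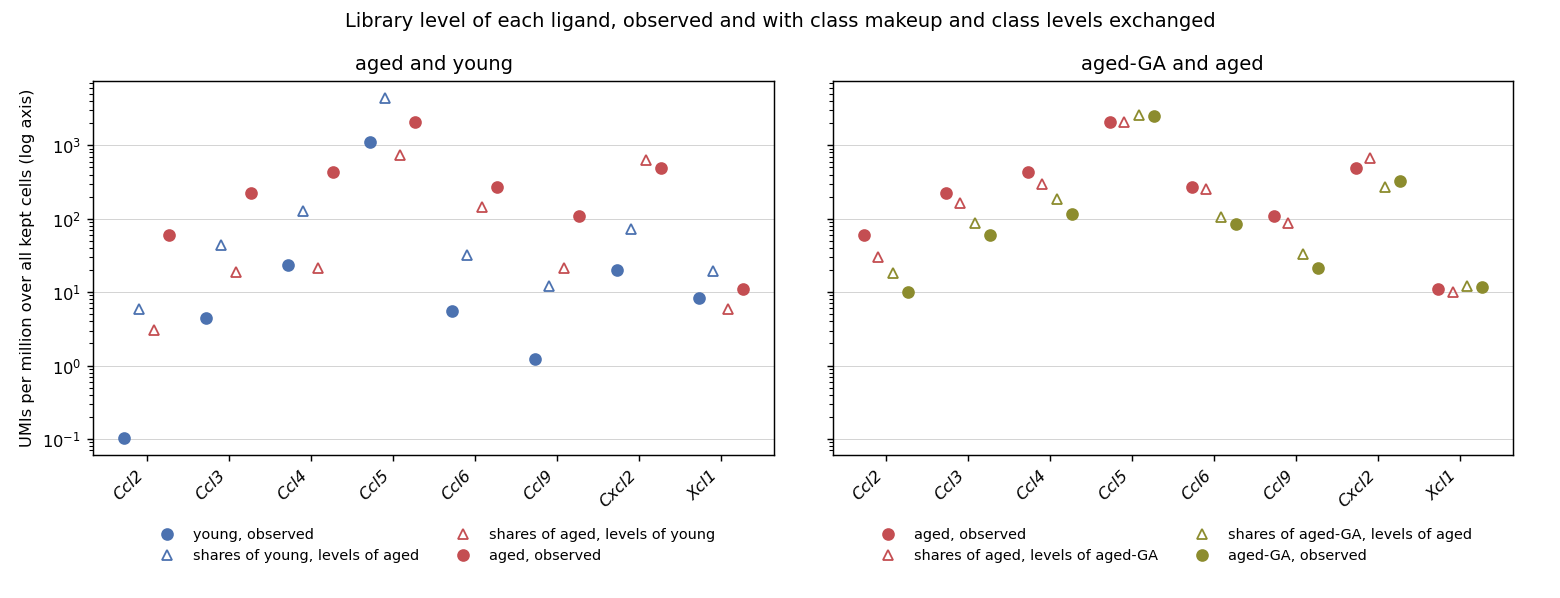
Level of each ligand over all kept cells (CPM, log axis), observed (filled) and recomputed with the class makeup of one library and the class levels of another (open triangles). For Ccl4 in aged-GA and aged mice, the observed levels were 116 and 429 CPM and the exchanged ones 188 and 294 CPM.

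Among genes most similar to each ligand over 18 sums of class and library, Pearson r of log2(CPM + 1) was highest for Il1b with Cxcl2 (0.984), Il2rb with Ccl5 (0.989), and Ccl4 with Ccl3 (0.939). The other leaders were C3 with Ccl2 (0.968), Slc41a3 with Ccl9 (0.951), Hacd4 with Ccl6 (0.982) and Baiap3 with Xcl1 (0.984). Libraries and their depth are shared between these sums, so the values describe the data only.

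Of other chemokine ligands listed, 4 of 29 had at least 100 UMIs in a class of a library: Ccl25, Cxcl3, Cxcl10 and Pf4. Cxcl10, a ligand induced by interferon, was at 20.6 CPM in aged and 2.20 CPM (4 UMIs) in aged-GA monocytes. With a pseudocount of 1 CPM, the log2 ratios of aged-GA over aged in monocytes were -2.76 for Cxcl10 and 1.14 for Pf4, a platelet chemokine, both past 2-fold of 3 ligands counted, beside 1.62% of all genes. Cxcl10 was counted through its aged UMIs alone. In neutrophils both ligands counted were past 2-fold, Cxcl3 at 1.25 and Pf4 at 1.22, beside 0.827% of all genes. Pf4, with 129 aged-GA and 85 aged UMIs there, was counted only through the aged-GA library, so this count is a description. In T cells 0 of 3 were past 2-fold, beside 0.333% of all genes. Of 23 chemokine receptors, 12 reached that count. Ccr1, a receptor of Ccl3, Ccl5, Ccl6 and Ccl9, was at 577 CPM in aged neutrophils, 224 CPM in aged basophils and 39.4 CPM in aged monocytes. Ccr2, the receptor of Ccl2, was at 76.8, 716 and 508 CPM in monocytes. Cxcr2 was at 737 and 674 CPM in aged and aged-GA neutrophils, where it is a gate marker. Xcr1 had at most 1 UMI in any of the 5 classes. Of aged-GA over aged ratios, 0 of 5 receptors in monocytes, 0 of 5 in neutrophils, 0 of 4 in NK cells and 0 of 10 in T cells were past 2-fold. Immediate early and stress genes likewise had 0 of 11, 0 of 11, 0 of 9 and 0 of 12. Over all genes the shares past 2-fold in these 4 classes were 1.62%, 0.827%, 0.479% and 0.333%, so counts of 0 in such short lists are near those shares. Of 12 cytokines, Il4 was at 723 and 563 CPM and Il6 at 437 and 481 CPM in aged and aged-GA basophils, and at most 1.76 CPM in the other classes. Cytokines past 2-fold in aged-GA over aged numbered 0 of 4, 0 of 5, 0 of 2 and 0 of 5 in monocytes, neutrophils, NK cells and T cells, beside the same shares of all genes. In aged over young, where 18.9% of all genes in monocytes, 2.34% in NK cells and 8.63% in T cells were past 2-fold, the receptors past it were 2 higher and 1 lower of 5 in monocytes, 1 higher of 4 in NK cells and 4 higher of 9 in T cells. The cytokines were 1 higher and 2 lower of 4 in monocytes, 0 of 2 in NK cells, and 2 higher and 1 lower of 5 in T cells. The immediate early and stress genes were 1 higher and 2 lower of 11 in monocytes, 0 of 9 in NK cells and 1 higher of 12 in T cells. Of those higher in monocytes, Ccr1 (0 young UMIs), Ccr2 (19), Osm (3) and Atf3 (30) reached the minimum only through the aged library. In T cells Il1b (86 young UMIs), Ifng (92) and the receptor Cx3cr1 (log2 ratio 2.49) did so too. The receptor counted as higher in NK cells was also Cx3cr1 (1.18), which reached the minimum in neither library alone. These counts are therefore descriptions.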

How the data were processed

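Per the labels and the methods, the libraries were made with the 10x Chromium 3′ Version 3 kit and sequenced on DNBseq. The authors deposited raw UMI counts per gene and barcode from Cell Ranger, without normalization, and the submitters' processing notes name mm10. The matrix headers name Cell Ranger 5.0.0. The filters of the methods left out cells under 200 genes, cells above 90% of the highest gene number and cells above 7.5% mitochondrial UMIs. A gate took cells with at least 3 markers of a class whose share of markers was highest, with every other class at no more than 0.5 of that share. The gates, their limits (set on marker counts), the 8 ligands and the lists were chosen with earlier results of these data known. Scrublet, through Scanpy, marked doublets, which were left out only as an alternative. Young mice had 545, aged 476 and aged-GA 673 called cells. Levels are summed counts as CPM, and ratios are log2 ratios of CPM, with a pseudocount of 1 CPM only for shares of genes past 2-fold. Exact Poisson, binomial and conditional binomial intervals (95%) were used, and a count of 0 was taken to allow 3 counts. Named genes are the 8 ligands, genes of the lists with at least 100 UMIs in one of the 5 classes of a library or that are receptors of a ligand, and the genes most similar to each ligand. The values of 1 listed receptor are not reported here. The computation was tested on simulated data. Alternatives changed the gate, doublets, filters, denominator, weighting, thinning and pseudocount. Python 3.11.15, NumPy 2.4.6, SciPy 1.17.1, pandas 2.3.3, Scanpy 1.11.5 and leidenalg 0.10.2 were used.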

Additional observations from a re-analysis of the deposited data

Results flagged for a closer look

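Cxcl2 differed between classes under the comparison of aged with young mice, with a log2 ratio of -1.35 in monocytes and 1.35 in T cells. Of 51 young monocytes, 1 held 54.3% of their Cxcl2 UMIs. In young T cells, 5 cells of no CD4, CD8 or gamma-delta subset held 72.7% of the Cxcl2 UMIs. The ratio was -0.02 (-0.63 to 0.55) within that subset and 1.24 (0.60 to 1.89) within CD4 T cells. Each CD8 subset held at most 1 young UMI. The difference between the classes was not tested. Ccl3 in aged-GA over aged was at -0.46 in NK cells and 1.16 in neutrophils, and this difference was not tested either.

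Barcodes with under 200 genes and mostly haemoglobin, which were left out of all classes, numbered 941, 5460 and 3812 in the young, aged and aged-GA libraries. Ligands were found in them at levels, in CPM without haemoglobin, above those of the young library. In aged mice Ccl2 was at 33.0, Ccl3 at 86.9, Ccl4 at 239.8, Ccl5 at 759, Ccl6 at 94.7, Ccl9 at 41.7 and Cxcl2 at 185 CPM. In aged-GA mice Ccl3 was at 39.4, Ccl4 at 97.9, Ccl5 at 1082, Ccl6 at 41.5 and Cxcl2 at 175.5 CPM. In young mice Ccl5 was at 143 CPM and the others at most at 2.65 CPM.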

How the results depend on the processing

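No paired analysis was possible because each group is 1 library. The leading class of a ligand was the one with its highest aged level among classes with at least 30 cells in both libraries. Basophils were thus never a leading class. It was NK cells for Ccl3 and Ccl4, monocytes for Ccl9, and in aged over young monocytes for Ccl6 and Cxcl2. Of 160 ratios of a ligand in its leading class under 10 alternatives, 136 moved by less than their interval, 23 moved and 1 reversed. These counts do not cover the levels in basophils. With cells classed by clusters built without chemokine genes, the values in aged over young were 0.62 for Ccl6 in monocytes, 0.26 for Cxcl2 in monocytes (reversed), 0.89 for Ccl4 and 0.44 for Ccl5 in NK cells, and in aged-GA over aged -0.60 for Ccl2 in monocytes, -0.53 for Ccl6 and 0.11 for Cxcl2 in neutrophils, and -0.18 for Ccl4 and -0.30 for Ccl5 in NK cells. With 1 marker more, the NK cell values were 0.94 for Ccl4, 0.17 for Ccl5 and 0.46 for Xcl1 in aged over young, and -0.16 for Ccl4 and -0.15 for Ccl5 in aged-GA over aged. With the mean of CPM per cell, Cxcl2 was at -0.96 in monocytes and Ccl4 at 0.95 in NK cells in aged over young, and Cxcl2 at 0.29 in neutrophils, Ccl4 at -0.26 and Ccl5 at -0.15 in NK cells in aged-GA over aged. Subtracting the level in B cells gave -1.70 for Cxcl2 in monocytes of aged over young. Ccl5 in NK cells of aged over young was at 0.24 with no limit on mitochondrial UMIs and at 0.24 without haemoglobin genes. In an alternative added after seeing the data, leaving out the cell with most UMIs of the ligand, Ccl9 was at 2.42 and Cxcl2 at -0.44 in monocytes. Cxcl2 in NK cells, aged-GA over aged, was -1.20 and reversed to 0.59 by clusters, 0.81 with 1 marker more, 0.45 without doublets and 0.37 without the top cell. Cxcl2 in basophils reversed to -0.83 with the mean of CPM per cell and to -2.83 without the top cell. The causes were not tested. By clusters, the basophil ratios were -0.98 for Ccl3 and -1.06 for Ccl4. With a pseudocount of 10 CPM, the share of genes past 2-fold in aged over young was 11.2% in monocytes and 2.41% in T cells, and in aged-GA over aged 0.489% in monocytes, 0.221% in NK cells and 0.0537% in T cells. With a minimum of 20 UMIs it was 7.08% in NK cells in aged over young, and 3.82%, 3.71%, 3.44% and 0.533% in monocytes, neutrophils, NK cells and T cells in aged-GA over aged. The 13 young neutrophils and 27 aged-GA basophils limit what the depth can show.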
